A study of Macaca mulatta with 12 samples.

Results

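Engineered heart tissue (EHT), a 3-dimensional muscle strip grown from cells cast in a gel, was compared with flat monolayer culture in normal oxygen (normoxia). Both cultures held cells that the labels call cardiomyocytes, made from induced pluripotent stem cells of the rhesus macaque (Macaca mulatta). Both were grown in RPMI medium with B27 and insulin. The labels name no transgene, no added agent, no stem cell line and no age of the cultures. The comparison used 6 of the 12 libraries of the series, 3 of EHT and 3 of monolayer, chosen by their labelled culture and oxygen. The other 6 libraries came from cultures kept in anaerobic pouches (hypoxia) and enter only where the difference between cultures is set beside that after hypoxia. Of 16745 genes in the table, 12298 passed a filter on low values over the 6 libraries and were tested. The labels do not say whether the 3 libraries of a group came from separate cultures, so p-values cover only the spread between these samples.

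In a working heart, cardiomyocytes contract through sarcomeres and are joined end to end by intercalated discs, while fibroblasts lay down the collagen and fibronectin that carry the load. Culture in a gel under tension gives cells a matrix on all sides, whereas a monolayer is attached on its lower face. Cultures made from pluripotent stem cells often hold other cell types beside cardiomyocytes, among them fibroblasts, smooth muscle cells and epithelia. Bulk RNA adds up all of them, so fewer cells of a type and less RNA per cell cannot be told apart in what follows.

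The monolayer libraries held 7904551 to 11298841 reads and the EHT libraries 4154346 to 8670347. Differences are on a log2 scale after each library was centred on its median over expressed genes, a step that added 0.74 to every EHT minus monolayer difference. Normalised reads are a gene's reads divided by a scale factor of its library, and are given in the order of replicates 1, 2 and 3. For each tested gene named below as higher, lower, risen or fallen, the 3 EHT values did not overlap the 3 monolayer values, except for ACTN2, TNNC1 and TCF21. The first principal component held 74.6% of the variance and separated the cultures, with monolayer libraries between -66.3 and -59.6 and EHT libraries between 56.6 and 67.0. EHT replicates 1 and 2 were closer to each other (chi-square per degree of freedom 4.89, r = 0.986 across genes) than the other replicate pairs, for which the same quantities were 35.0 to 69.7 and 0.953 to 0.965. EHT replicate 3 stood apart on the second component at -40.8. That component held 10.5% of the variance. Among the hypoxia libraries, EHT replicate 3 stood apart from EHT replicates 1 and 2.

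Genes changed in both directions on a broad front. Of the genes tested, 2853 (23.2%) were called higher in EHT and 2370 (19.3%) lower at an adjusted p under 0.05, 42.5% in all. Beside the counts of a gene list below stands the share of its tested genes called in either direction, to be read against those 42.5%. The lower genes reached further: 617 were lower by at least 4-fold and 88 by at least 16-fold, against 283 and 27 higher by as much. The 3 EHT and 3 monolayer values did not overlap for 6819 genes, 55.4% of those tested. On the deposited values without centring, 246 genes (2%) were called higher and 2599 (21.1%) lower. With voom on the recovered reads, 2314 (18.8%) were higher and 2759 (22.4%) lower. The share of calls that were higher was 54.6% after centring, 45.6% with voom and 8.65% without centring, so the balance of the directions depends on the scaling while no gene called after centring was called in the opposite direction by either of the other 2 fits. With EHT replicates 1 and 2 averaged as 1 library, 2059 genes were higher and 1908 lower. The median over all tested genes was a difference of 0.08.

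**Figure D1:**
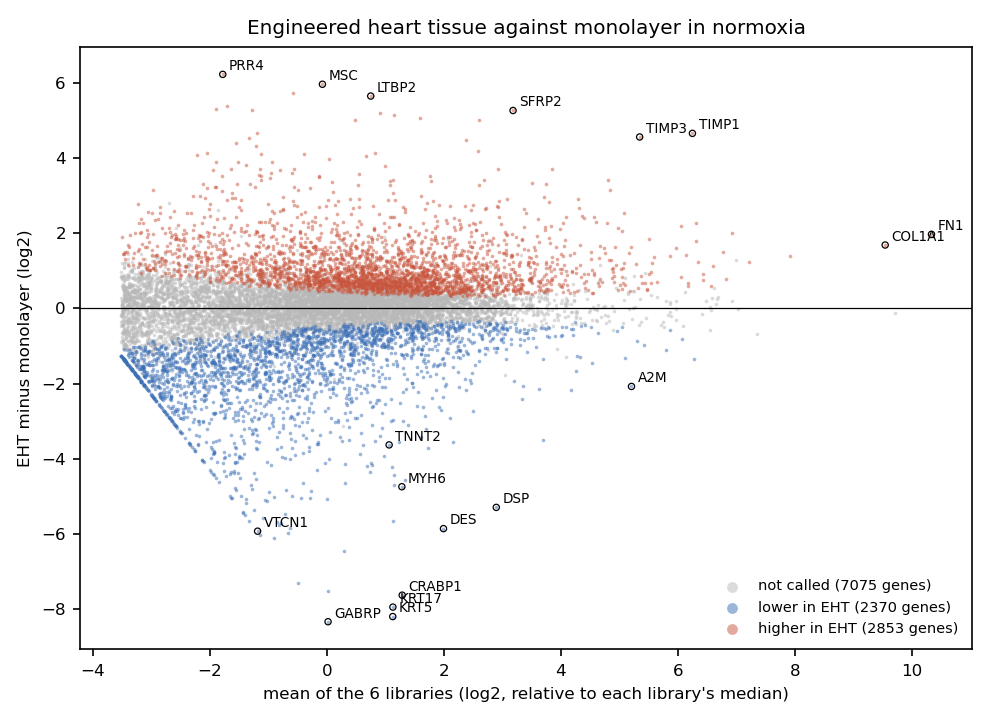
Each point is 1 of 12298 tested genes. The x axis is its mean over the 6 libraries and the y axis its EHT minus monolayer difference, both log2 after centring. Red points were called higher in EHT (2853 genes), blue points lower (2370), and circled points are named. The straight lower edge on the left holds genes without reads in EHT.

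The largest differences in the higher direction belonged mostly to genes with few reads in monolayer. PRR4, a gene for a small proline-rich secreted protein, had no read in the monolayer libraries and 569, 332 and 769.6 normalised reads in the EHT libraries. With a floor of 3 reads over the monolayer group, it was at least 628-fold higher in EHT as a share of reads. MSC, which encodes the transcription factor musculin, had 16, 47.1 and 2.69 normalised reads in monolayer and 1328, 1281 and 2483 in EHT. The lowest EHT value of MSC lay far above the highest monolayer value, and its difference was 5.96 ± 0.61, adjusted p = 0.000208. CD70 and TNFSF18, both ligands of the tumour necrosis factor family, had differences of 5.38 ± 0.52, adjusted p = 0.000165, and 5.73 ± 0.7, adjusted p = 0.000475, in that order. EHT replicate 3 held the least TNFSF18, 339 normalised reads against 1826 and 1781 in the other EHT libraries, and the most CD70, 532. S100A4, a calcium-binding protein of motile mesenchymal cells, had 56.2, 64.8 and 88.9 normalised reads in monolayer and 2813, 2440.3 and 3356 in EHT, the most even of these rises (5.13 ± 0.17, adjusted p = 1.02e-05). Others among the 12 largest were LTBP2 (5.64), the thrombin receptor family member F2RL2 (5.31), the secretory pathway pseudokinase FAM20A (5.27), the Wnt modulator SFRP2 (5.26), the proteoglycan core SRGN (5.2), the collagenase MMP13 (5.05) and the matrix protein SPON2 (5.02).

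The marker lists gave shares of reads, which do not by themselves show that a cell type was present. Fibroblast markers, COL1A1 and COL3A1 among them, took 3.45%, 4.8% and 7.2% of the monolayer reads and 6.08%, 6.41% and 5.31% of the EHT reads, ranges that overlap (exact permutation p = 0.6, two-sided, n = 3 per group). Without COL1A1 and COL3A1 they took 0.553%, 0.739% and 1.21% of monolayer reads and 0.6%, 0.566% and 0.743% of EHT reads (exact permutation p = 0.7). Gene by gene, 5 of 12 fibroblast markers were higher and 2 lower (58.3% called). The higher ones were S100A4, FAP (2.91), PDGFRB (2.17), DPT (2.16) and COL1A1, and the lower ones FBLN1 (-1.44) and TCF21 (-1.16). DPT and TCF21 were not called with voom. The call of DPT was lost without monolayer replicate 2, monolayer replicate 3 or EHT replicate 1, and over the 6 omissions its difference ran from 1.31 to 2.8. The call of TCF21 was lost without monolayer replicate 2, monolayer replicate 3, EHT replicate 1 or EHT replicate 2, and over the 6 omissions its difference ran from -1.63 to -0.91. Cardiomyocyte markers took 0.266%, 0.390% and 0.0525% in monolayer and 0.0185%, 0.0103% and 0.00218% in EHT. Every EHT value lay under every monolayer value (exact permutation p = 0.1, the smallest that 3 against 3 allows). So the cardiomyocyte markers counted took a small part of the reads in monolayer and a smaller part in these EHT libraries. MYH7 and TTN, which the list also names, were not analysed here, so these shares rest on 16 of its 18 genes. MYL2, the ventricular myosin light chain, had 3, 108 and 0 reads in monolayer and no read in EHT. It lay under the filter and was not tested. Smooth muscle markers took 0.595%, 0.507% and 0.350% in monolayer and 0.384%, 0.374% and 0.254% in EHT, which overlap (exact permutation p = 0.3). Markers of simple epithelium, stratified epithelium and amnion or surface ectoderm were all lower in EHT without overlap (exact permutation p = 0.1 each). So were those of endothelium, epicardium or mesothelium, neural cells, pluripotent cells and cartilage, bone or tendon (exact permutation p = 0.1 each). Gene by gene, 2 of 6 tested neural markers were higher and 3 lower (83.3% called). Of 9 cartilage, bone or tendon markers 2 were lower and none higher (22.2% called). NCAM1 had the most monolayer reads of the neural list, 4500, 5814 and 3665, against 143, 504 and 537 in EHT. MAP2 had 295, 295 and 372 normalised reads in monolayer and 991, 1206 and 1066 in EHT. In the pluripotent cell list POU5F1 and LIN28A had no read in any of the 6 libraries. Most monolayer reads of that list were of PODXL, with 750, 1367 and 1143. Of its 4 tested markers 3 were lower (75% called). No marker list was higher in EHT without overlap. Stratified epithelium took 1.06%, 0.254% and 0.199% in monolayer against 0.0161%, 0.0134% and 0.0253% in EHT.

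**Figure D2:**
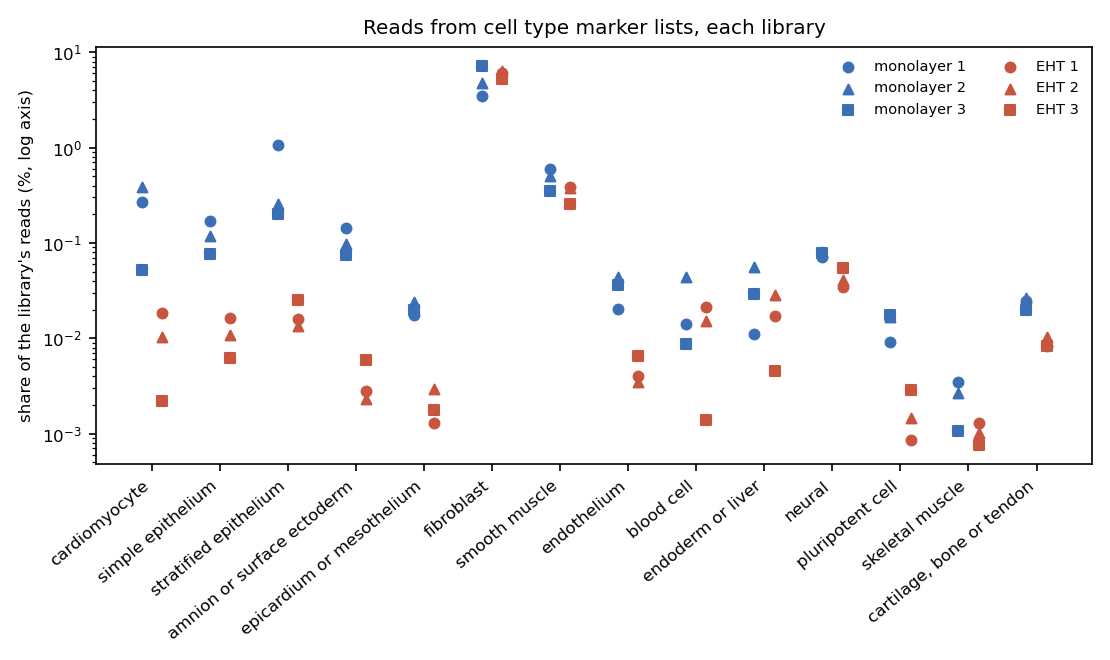
The y axis is the share of a library's reads from each marker list (percent, log axis). Blue marks are the 3 monolayer libraries, red marks the 3 EHT libraries, and the shape gives the replicate. Fibroblast shares overlap between 3.45% and 7.2%, while cardiomyocyte, epithelial and several other shares are lower in all 3 EHT libraries.

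Genes of the sarcomere and Z-disc list that passed the test were lower in EHT, apart from NEBL. MYH6, the alpha cardiac myosin heavy chain, had 4509, 5359 and 962 normalised reads in monolayer and 363, 135 and 1.07 in EHT. Monolayer replicate 3 was the lowest of its group and EHT replicate 3 held almost no read, yet the groups did not overlap (-4.74 ± 1.06, adjusted p = 0.00812). TNNT2, cardiac troponin T, had 2844, 3601 and 448 normalised reads in monolayer and 341, 175 and 9.59 in EHT and the same order of libraries (-3.63 ± 0.99, adjusted p = 0.0183). The call of TNNT2 was lost without monolayer replicate 1 or monolayer replicate 2, and over the 6 omissions its difference ran from -4.54 to -2.57. DES, the intermediate filament desmin, had 4976, 8442 and 7792 normalised reads in monolayer and 215, 168 and 11.7 in EHT and was the most reduced of the 26 tested sarcomere and Z-disc genes (-5.85 ± 0.66, adjusted p = 0.000328). Of those 26, 11 were lower and 1 higher (46.2% called), with a median of -1.77. With voom 6 were lower and none higher. ACTC1, MYL4, MYBPC3, MYL3, TNNC1 and ACTN2, lower after centring, did not pass with voom, nor did NEBL, the 1 higher gene. TNNI1 (-3.68), the slow troponin I of fetal heart, and MYL7 (-4.56), the atrial light chain, kept their calls with voom. The call of MYL7 was lost without monolayer replicate 2, and over the 6 omissions its difference ran from -5.51 to -3.2.

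Calcium handling and cardiac transcription factors did not move together. Among 18 calcium handling genes 5 were lower and 2 higher (38.9% called), a share under that of all tested genes, or 8 and none on the deposited values. The sarcoplasmic release channel RYR2 had 193, 415 and 177 normalised reads in monolayer and 8.79, 4.30 and 30.9 in EHT (-2.95 ± 0.4, adjusted p = 0.000805), and CASQ2, the calcium store protein calsequestrin, differed by -2.59 ± 0.37, adjusted p = 0.000928. ORAI1 and STIM1, which form the store-operated calcium entry of non-excitable cells, were higher by 1.5 and 1.02. Of 23 cardiac transcription factors 9 were lower and 6 higher (65.2% called), or 12 and none on the deposited values. The lower ones included HAND1 (311, 625 and 780.3 normalised reads in monolayer and 2.20, 22.6 and 27.7 in EHT, -3.99 ± 0.49, adjusted p = 0.000462), HOPX (-2.9), TBX20 (-1.95) and GATA4 (-1.94). The higher ones were FOXC2 (2.06), MEF2A (1.5), NR2F1 (1.06), MEF2D (0.93), NR2F2 (0.78) and FOXC1 (0.65). On the deposited scale, where every difference is 0.74 smaller, FOXC1 turned to -0.09. The call of FOXC1 was lost without monolayer replicate 1 or EHT replicate 3, and over the 6 omissions its difference ran from 0.53 to 0.76. NKX2-5, the early cardiac regulator, had 97.6, 194 and 18 normalised reads in monolayer and 22, 17.2 and 39.4 in EHT. Monolayer replicate 3 was as low as the EHT libraries (-0.83 ± 0.66, adjusted p = 0.34).

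Epithelial genes gave the deepest falls. GABRP, a GABA receptor subunit abundant in amnion and surface epithelia, had 6689, 4083 and 2595 normalised reads in monolayer and no read in EHT, and its absence from all EHT reads makes it at least 4473-fold lower. KRT5, a keratin of basal stratified epithelium, had 30492, 5232 and 3854 normalised reads in monolayer and 19.8, 20.4 and 0 in EHT. Monolayer replicate 1 held several times the KRT5 of the other monolayer libraries, and EHT replicate 3 held none (-8.19 ± 0.74, adjusted p = 0.000115). KRT17, KRT15 and KRT4 were lower by nearly as much (-7.94, -7.5 and -7.29), as was the hemidesmosomal collagen COL17A1 (-6.44). TP63, the master regulator of stratified epithelium, and GRHL2, a regulator of epithelial identity, were lower. TP63 had 1185, 357 and 319 normalised reads in monolayer and 0, 2.15 and 0 in EHT (-5.17 ± 0.49, adjusted p = 0.000151). GRHL2 had 905, 496 and 412 normalised reads in monolayer and no read in EHT (-5.5 ± 0.31, adjusted p = 2.13e-05). Of 12 tested simple epithelium markers 10 were lower (83.3% called), of 10 stratified markers 9 (90%), and of 8 amnion or surface ectoderm markers 8 (100%), with none higher. The keratin KRT18 of simple epithelia did not pass the test: 95.1, 95.5 and 92.5 normalised reads in monolayer and 72.5, 74.1 and 39.4 in EHT (-0.34 ± 0.24, adjusted p = 0.283).

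Of 13 claudins, the strands of tight junctions, 9 were lower and none higher (69.2% called), and CLDN6 had 1449, 810.0 and 469 normalised reads in monolayer and no read in EHT. Of 12 desmosome genes 10 were lower (83.3% called), and 8 with voom. DSP, the desmoplakin that also anchors intercalated discs, had 23714, 7530.4 and 6669 normalised reads in monolayer and 198, 228 and 293 in EHT (-5.29 ± 0.41, adjusted p = 6.55e-05). PKP2, the plakophilin of heart muscle, did not pass the test (-0.27 ± 0.51, adjusted p = 0.692). Of 18 cadherins 6 were higher and 6 lower (66.7% called), or none and 8 on the deposited values. The epithelial ones went down, CDH1 with 1521, 743 and 517 normalised reads in monolayer and 24.2, 3.22 and 1.07 in EHT (-4.99 ± 0.43, adjusted p = 9.23e-05) and placental cadherin CDH3 with a difference of -5.64 ± 0.41, adjusted p = 5.35e-05. N-cadherin, CDH2, was higher with 2063, 2019.8 and 741 normalised reads in monolayer and 3235, 3925 and 2599.9 in EHT (1.19 ± 0.35, adjusted p = 0.0248). The call of CDH2 was lost without EHT replicate 1 or EHT replicate 2, and over the 6 omissions its difference ran from 0.74 to 1.43. Of 9 connexins 5 were lower and 1 higher (66.7% called). GJB6 of skin fell (-4.03), while GJA1, the main connexin of ventricle and fibroblasts, had 3511, 3346 and 2864 normalised reads in monolayer and 12306, 10879.5 and 7214 in EHT and rose in each EHT library (1.67 ± 0.21, adjusted p = 0.000559).

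Integrins, the receptors that tie cells to matrix, went both ways. ITGA6, the laminin receptor chain of hemidesmosomes, had 3010.2, 935 and 887 normalised reads in monolayer and 105, 81.6 and 88.5 in EHT (-3.52 ± 0.4, adjusted p = 0.000349). The collagen receptor chains ITGA11 and ITGA10 rose, with 1826, 1188 and 744 normalised reads in monolayer and 11016, 9761 and 4928 in EHT for ITGA11 (2.83 ± 0.37, adjusted p = 0.000596), and a difference of 2.85 for ITGA10. ITGB5 (2.42), ITGA5 (1.39), which with its partner binds fibronectin, and the leukocyte chain ITGB2 (2.65) were higher as well. In all, 7 of 17 tested integrins were higher and 4 lower (64.7% called), and on the deposited values 5 were higher and 5 lower.

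Fibronectin and a set of collagens took more of the EHT reads. FN1, the fibronectin gene, had 244012, 142410.0 and 93646 normalised reads in monolayer and 685581, 748532 and 338534 in EHT, and it accounted for 3.38%, 2.01% and 1.32% of the monolayer reads and 7.51%, 8.04% and 4.11% of the EHT reads. Its groups did not overlap (1.97 ± 0.61, adjusted p = 0.0303). The call of FN1 was lost without monolayer replicate 2, monolayer replicate 3, EHT replicate 1 or EHT replicate 2, and over the 6 omissions its difference ran from 1.67 to 2.34. FN1 was not called either with EHT replicates 1 and 2 averaged (adjusted p = 0.0855), under quantile normalization or on the deposited values. It was called with voom (adjusted p = 0.00807). COL1A1, the alpha 1 chain of type I collagen, had 76914, 93773 and 117262 normalised reads in monolayer and 327644, 339106 and 224555 in EHT (1.68 ± 0.43, adjusted p = 0.0148). It took 1.07%, 1.32% and 1.65% of the monolayer reads and 3.59%, 3.64% and 2.73% of the EHT reads. The call of COL1A1 was lost without monolayer replicate 2 or EHT replicate 2, and over the 6 omissions its difference ran from 1.52 to 1.88. COL1A1 was not called under quantile normalization or on the deposited values either. COL3A1, by contrast, took 1.83%, 2.74% and 4.33% of the monolayer reads and 1.9%, 2.21% and 1.84% of the EHT reads, with overlapping libraries (-0.13 ± 0.49, adjusted p = 0.857). Of 12 fibrillar collagens and partners 7 were higher and none lower (58.3% called), with a median of 0.92, and 1 was higher on the deposited values. Beside COL1A1, those with the largest rise were COL8A1 (2.84), COL6A1 (1.99), COL16A1 (1.6) and COL6A2 (1.5). COL6A3, whose protein assembles with the products of COL6A1 and COL6A2, stood at -0.68 ± 0.29, adjusted p = 0.0857, and was called lower with voom.

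Basement membrane, elastic fibre and proteoglycan genes changed member by member. NID1, nidogen 1, which links laminin to type IV collagen, had 3276, 2437 and 1268 normalised reads in monolayer and 19311, 18509.8 and 18118 in EHT. The EHT libraries were tightly grouped and all above the monolayer ones (3.16 ± 0.29, adjusted p = 0.000119). Of 17 basement membrane genes 9 were higher and 4 lower (76.5% called), or 2 and 4 on the deposited values, where the median turned from 0.71 to -0.04. LAMA4 of mesenchymal laminins rose (2.19) and LAMA3 of epithelial laminin fell (-1.93). LTBP2, a microfibril protein related to the latent TGF-beta binders, had 72.1, 29.4 and 28.7 normalised reads in monolayer and 2842, 2754 and 2207 in EHT (5.64 ± 0.3, adjusted p = 2e-05). Elastin, ELN, differed by 1.84, FBN1 by 1.42 and FBN2, the fibrillin of development, by -1.68. The crosslinking oxidase LOXL2 had 2929, 4301 and 1814 normalised reads in monolayer and 14919, 15428 and 10201 in EHT (2.28 ± 0.29, adjusted p = 0.000587). BGN, biglycan, had 423, 742 and 261 normalised reads in monolayer and 4875, 4425 and 4449 in EHT (3.41 ± 0.3, adjusted p = 0.000104), whereas fibromodulin, FMOD, was lower (-3.63 ± 0.68, adjusted p = 0.00372) with EHT replicate 3 the lowest at 8.53 normalised reads. Of 16 matricellular genes 8 were higher and 1 lower (56.2% called), or none and 2 on the deposited values, with the thrombospondins THBS1 (2.18) and THBS2 (2.08) among the first and SPARCL1 (-3.3) alone in the second.

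Several matrix proteases and their inhibitors were higher in the same libraries. TIMP1, a secreted inhibitor of metalloproteinases, had 2818, 5319 and 2702 normalised reads in monolayer and 112655, 134106 and 38409.8 in EHT, and EHT replicate 3 held the least of its group (4.65 ± 0.47, adjusted p = 0.000203). TIMP3, the inhibitor that stays bound to matrix, had 2588, 2146 and 1225 normalised reads in monolayer and 45437, 47054 and 37676 in EHT (4.56 ± 0.25, adjusted p = 2.13e-05). TIMP2 was higher by 2.28 and TIMP4 by 1.61. Among the proteases, gelatinase MMP2 had 6414, 9241 and 9356 normalised reads in monolayer and 31445, 35102 and 49990.4 in EHT (2.27 ± 0.25, adjusted p = 0.000297), and collagenase MMP13 had 583, 34 and 45.8 normalised reads in monolayer and 2385, 2384 and 9380.5 in EHT (5.05 ± 0.92, adjusted p = 0.00318). MMP13 was most abundant in EHT replicate 3 and least in monolayer replicates 2 and 3. Several ADAMTS genes fell, ADAMTS18 to no read in EHT (-5.05), so that over the 37 genes of the class 13 were higher and 11 lower (64.9% called), with a median of -0.10. With voom the counts were 13 and 13, and on the deposited values 7 and 13.

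**Figure D3:**
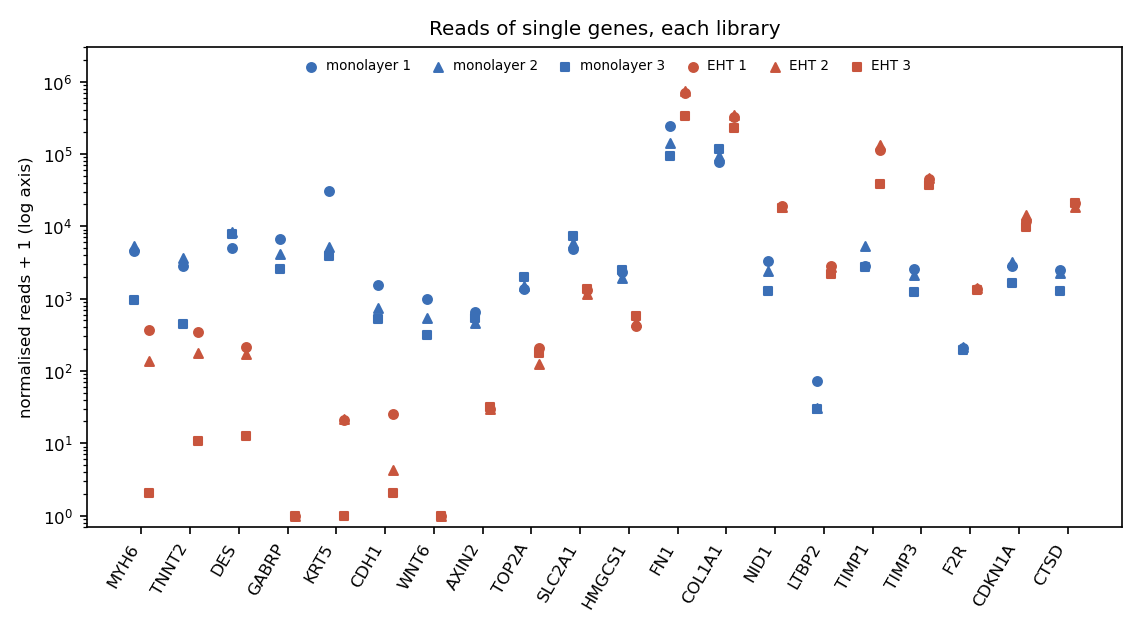
The y axis is normalised reads plus 1 (log axis) for 20 genes in each of the 6 libraries; blue is monolayer, red is EHT and the shape gives the replicate. EHT replicate 3 holds the lowest MYH6, TNNT2 and DES, and no group overlaps another for the genes drawn.

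The plasminogen and thrombin system was the list with the highest median, 1.54 over 18 tested genes. Of these 12 were higher and 1 lower (72.2% called), and 8 were higher on the deposited values. The plasminogen activators PLAT (2.67) and PLAU (2.46) and the urokinase receptor PLAUR (2.3) were higher. The thrombin receptor F2R had 206, 213 and 193 normalised reads in monolayer and 1354, 1386 and 1329 in EHT, with almost no spread within either group (2.71 ± 0.12, adjusted p = 1.02e-05), and F2RL2 had 1.28, 1.31 and 0 normalised reads in monolayer and 402, 286 and 362 in EHT. A2M, a broad protease inhibitor, had 15986, 18441 and 17427 normalised reads in monolayer and 4917, 4286 and 2844 in EHT and was the lower member (-2.08 ± 0.22, adjusted p = 0.000261).

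Growth factor genes changed in both directions. In the TGF-beta list, 11 of 20 tested genes were higher and 3 lower (70% called), or 5 and 3 on the deposited values, where the median turned from 0.68 to -0.06. The ligand TGFB1 had 525, 579.7 and 207 normalised reads in monolayer and 1673, 2118 and 2241 in EHT (2.34 ± 0.33, adjusted p = 0.000897), its receptor TGFBR2 was higher by 2.25 and the target PMEPA1 by 1.76, while TGFB3 (-1.38) and the activin trap FST (-2.2) were lower. FGF2 and FGF7, ligands of fibroblast growth factor receptors, were higher (2.42 ± 0.23, adjusted p = 0.000145, and 2.97 ± 0.33, adjusted p = 0.000279). The receptors FGFR2 (-2.5) and FGFR3 (-3.12) fell and FGFR1 rose (0.74), though FGFR1 was not called under quantile normalization or on the deposited values. DUSP6, a phosphatase induced by this pathway, had 165, 203 and 319 normalised reads in monolayer and 960.5, 1629 and 1487 in EHT (2.56 ± 0.26, adjusted p = 0.000215). Among insulin-like growth factor genes, IGFBP7 had 1098, 1595 and 401 normalised reads in monolayer and 9642, 12228 and 12365 in EHT (3.71 ± 0.41, adjusted p = 0.00028) and IGFBP6 rose by 2.74, whereas IGF1 fell (-2.21) and IGFBP3 was lower with 18953, 36128 and 32123 normalised reads in monolayer and 15526, 14022 and 5397 in EHT (-1.35 ± 0.43, adjusted p = 0.0346). The call of IGFBP3 was lost without monolayer replicate 2, monolayer replicate 3 or EHT replicate 3, and over the 6 omissions its difference ran from -1.65 to -0.86. KDR, the main receptor for VEGFA, had 672, 1123 and 978 normalised reads in monolayer and 59.3, 59.1 and 45.8 in EHT (-3.51 ± 0.21, adjusted p = 2.82e-05), and VEGFA itself did not pass the test (0.49 ± 0.25, adjusted p = 0.144). Without KDR, the other endothelial markers took 0.0112%, 0.0282% and 0.0227% of monolayer reads and 0.00339%, 0.00287% and 0.00596% of EHT reads (exact permutation p = 0.1). In monolayer most of these remaining reads were of TEK, so this fall does not stand for the list as a class. TEK had 1059, 2428 and 1646 reads in monolayer and 42, 42 and 12 in EHT. PECAM1 had 35, 182 and 24 reads in monolayer and 67, 148 and 432 in EHT. Of the 8 tested endothelial markers 2 were lower, KDR and TEK (-4.14), and 1 higher, PECAM1 (2.22). That is 37.5% called, a share under that of all tested genes. The part of these markers in the KDR result was not tested. The call of PECAM1 was lost without monolayer replicate 1 or monolayer replicate 3, and over the 6 omissions its difference ran from 1.74 to 2.86. PDGFRB, the receptor of fibroblasts and mural cells, had 1001, 1598 and 1733 normalised reads in monolayer and 5785, 5799 and 6877 in EHT (2.17 ± 0.22, adjusted p = 0.000199).

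Wnt and ephrin genes were called lower more often than higher. Of 41 tested Wnt genes 21 were lower and 4 higher (61% called), and with voom 22 and 3. WNT6 had 972, 529 and 309.8 normalised reads in monolayer and no read in EHT and was at least 611-fold lower, and WNT10A (-4.4), WNT9B (-3.96), WNT3 (-3.93) and WNT7B (-3.88) fell. AXIN2, the feedback target read as a gauge of canonical Wnt activity, had 649, 451 and 535 normalised reads in monolayer and 28.6, 29 and 30.9 in EHT (-3.38 ± 0.19, adjusted p = 2.13e-05), and the transcription factor LEF1 fell (-2.31). WNT5A, a ligand of the non-canonical branch, went the other way with 106, 135 and 84.4 normalised reads in monolayer and 789, 930.2 and 864 in EHT (2.91 ± 0.18, adjusted p = 3.04e-05). The secreted SFRP2 (5.26) and DKK3 (3.33) rose, while the antagonists DKK2 (-3.42) and WIF1 (-4.38) fell. Of 17 ephrins and Eph receptors, contact signals that sort cells, 13 were lower and none higher (76.5% called) in the centred, deposited and voom fits. EFNA1 had 492, 453 and 443 normalised reads in monolayer and 13.2, 9.67 and 24.5 in EHT (-3.69 ± 0.22, adjusted p = 2.65e-05) and EPHA1 fell too (-3.79).

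Of 39 semaphorins, plexins, slits and netrins 22 were lower and 7 higher (74.4% called), or 23 and 1 on the deposited values, with SEMA3F (3014, 2318 and 1821 normalised reads in monolayer and 63.7, 56.9 and 144 in EHT, -4.42 ± 0.29, adjusted p = 3.55e-05) and SEMA7A (219, 132 and 93.4 normalised reads in monolayer and 1185, 1376 and 1748 in EHT, 3.28 ± 0.28, adjusted p = 8.4e-05) at the ends. Of 24 tested HOX genes, which mark position along the body, 16 were lower and none higher (66.7% called). HOXB9 had 391, 226 and 405 normalised reads in monolayer and 41.8, 37.6 and 0 in EHT (-3.18 ± 0.58, adjusted p = 0.00313). Of 24 BMP genes 8 were lower and 5 higher (54.2% called), or 10 and none on the deposited values. BMP5 (-3.17) and BMP7 (-2.78) were lower, GREM1, a BMP antagonist, had 456, 656 and 492 normalised reads in monolayer and 1042, 963 and 4401 in EHT (1.67 ± 0.5, adjusted p = 0.027), and CHRDL1 rose by 1.81. The call of GREM1 was lost without monolayer replicate 1, monolayer replicate 2 or monolayer replicate 3, and over the 6 omissions its difference ran from 0.98 to 2.06. Of 16 Notch genes 5 were lower, among them NOTCH3 (-2.17) and NOTCH1 (-1.98), and 1 was higher (37.5% called), a share under that of all tested genes, or 5 and none on the deposited values. The markers of simple epithelium took 0.168%, 0.119% and 0.0772% of monolayer reads and 0.0162%, 0.0107% and 0.00624% of EHT reads, with CLDN6, ESRP1, GRHL2 and RAB25 at 0 in EHT. Their part in these differences was not tested.

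**Figure D4:**
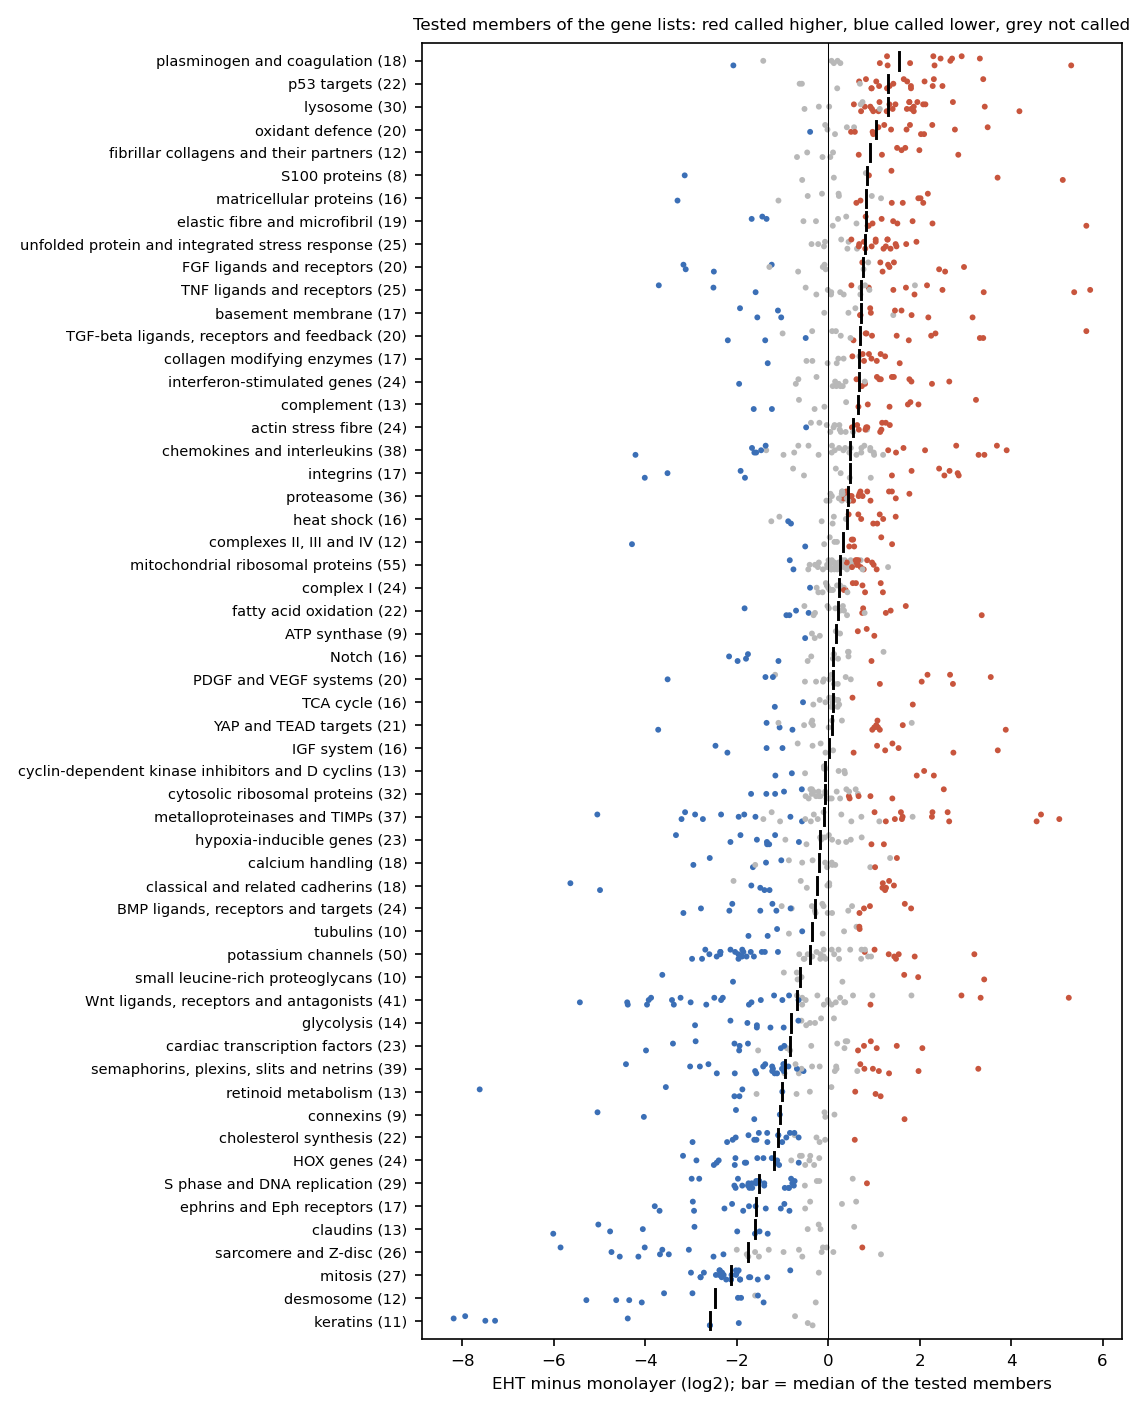
Each dot is a tested gene of a list, placed on the x axis by its EHT minus monolayer difference (log2); the number after a list is its tested genes and the black bar their median. Red was called higher, blue lower, grey neither. Keratins (median -2.59) and desmosome genes lie at the bottom, and plasminogen and coagulation (median 1.54) at the top.

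Of 27 tested mitosis genes 26 were lower, a share of 96.3% beside the 19.3% of all tested genes, and the same number were lower without centring and with voom. TOP2A, the topoisomerase that untangles chromosomes, had 1347, 1468 and 1967 normalised reads in monolayer and 204, 125 and 178 in EHT (-3.0 ± 0.22, adjusted p = 5.28e-05), and cyclin B1, CCNB1, had 671, 697 and 796 normalised reads in monolayer and 171, 78.4 and 187 in EHT (-2.13 ± 0.27, adjusted p = 0.000515). The 1 mitosis gene not called was ECT2 (-0.21 ± 0.22, adjusted p = 0.478). Of 29 genes of S phase 24 were lower (86.2% called), MCM3 of the replicative helicase with 906, 668 and 1175 normalised reads in monolayer and 105, 104 and 90.6 in EHT (-2.82 ± 0.22, adjusted p = 6.55e-05), and 1 was higher, the thymidylate synthase TYMS (0.85 ± 0.18, adjusted p = 0.00662). The cyclin-dependent kinase inhibitor CDKN1A, known as p21, had 2780.5, 3223 and 1661 normalised reads in monolayer and 11902, 14168 and 9668 in EHT (2.31 ± 0.24, adjusted p = 0.000232). The G1 cyclin CCND1 rose by 1.93 and the inhibitor CDKN2B by 2.1. The call of CDKN2B was lost without EHT replicate 1, and over the 6 omissions its difference ran from 1.32 to 2.59.

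CDKN1A belongs to the targets of p53, of which 18 of 22 tested were higher and none lower in the centred and voom fits (81.8% called), with a median of 1.31. On the deposited values 4 were higher and the median was 0.57. GDF15, a stress cytokine, had 86.2, 189.7 and 140.1 normalised reads in monolayer and 1699, 2157 and 879 in EHT (3.39 ± 0.35, adjusted p = 0.000211). The death receptor FAS had 92.5, 85.7 and 98.8 normalised reads in monolayer and 613, 575 and 506 in EHT (2.5 ± 0.15, adjusted p = 2.86e-05), and MDM2, the ligase that degrades p53, had 329, 181 and 194 normalised reads in monolayer and 787, 884 and 709 in EHT (1.81 ± 0.22, adjusted p = 0.000452). TIGAR (2.28), RRM2B (2.11) and BAX (1.11) were higher as well. BTG2 (-0.63 ± 0.39, adjusted p = 0.223) and FDXR (-0.58 ± 0.29, adjusted p = 0.14) did not pass the test. Of 20 oxidant defence genes 14 were higher and 1 lower (75% called), or 3 and none on the deposited values. The sulfiredoxin SRXN1 had 65.1, 50.4 and 32.3 normalised reads in monolayer and 529.7, 619 and 808 in EHT (3.49 ± 0.27, adjusted p = 6.56e-05), NQO1 rose by 2.27 and the cystine carrier SLC7A11 by 2.03. HMOX1 did not pass the test (0.56 ± 0.26, adjusted p = 0.117).

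Of 30 tested genes of the lysosome, the degradative organelle, 24 were higher and none lower in the centred and voom fits (80% called), with a median of 1.31, and 3 were higher on the deposited values, where the median was 0.56. CTSD, the aspartic protease cathepsin D, had 2465, 2274 and 1284 normalised reads in monolayer and 20930.5, 18349 and 20925 in EHT (3.42 ± 0.23, adjusted p = 3.86e-05). CTSK, a collagen-degrading cathepsin, had 339.5, 268 and 306 normalised reads in monolayer and 3908, 4129 and 10556 in EHT, most of it in EHT replicate 3 (4.18 ± 0.34, adjusted p = 7.03e-05). CTSA (2.73), TPP1 (1.95) and the membrane protein LAMP1 (1.77) showed the same direction. Of 36 proteasome genes 21 were higher and none lower (58.3% called), 13 with voom, and none on the deposited values, where the median turned from 0.43 to -0.31. The largest rises in that list were those of PSMB8 (1.77), PSMB10 (1.48) and PSMB9 (1.39), the catalytic subunits of the immunoproteasome.

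Of 25 genes of the unfolded protein and integrated stress responses 17 were higher and none lower (68% called), and none in either direction without centring. DNAJB9 had 292, 232 and 368 normalised reads in monolayer and 936, 998 and 1452 in EHT (1.93 ± 0.22, adjusted p = 0.000328) and DDIT3, the transcription factor CHOP, 235, 371 and 412 normalised reads in monolayer and 974, 1128 and 1102 in EHT (1.7 ± 0.21, adjusted p = 0.000443). HSPA5, the chaperone BiP, did not pass the test (0.44 ± 0.26, adjusted p = 0.198; -0.3 on the deposited values). Of 16 heat shock genes 8 were higher and 2 lower (62.5% called), or none and 4 on the deposited values. HSP90AB1, a cytosolic chaperone, was 1 of the lower ones with 17796, 18646 and 24912 normalised reads in monolayer and 10666, 10771 and 11681 in EHT (-0.82 ± 0.2, adjusted p = 0.0129). The call of HSP90AB1 was lost without EHT replicate 1 or EHT replicate 2, and over the 6 omissions its difference ran from -0.93 to -0.63. Of 24 interferon-stimulated genes 12 were higher and 1 lower (54.2% called), or 2 and 3 on the deposited values, where the median turned from 0.68 to -0.07. The guanylate-binding protein GBP1 had 30.0, 53.7 and 36.8 normalised reads in monolayer and 299, 277 and 335 in EHT (2.65 ± 0.22, adjusted p = 7.68e-05), whereas MX1 had 259, 323 and 348 normalised reads in monolayer and 50.6, 73 and 52.2 in EHT (-1.95 ± 0.21, adjusted p = 0.000254). Of 38 chemokines, interleukins and their receptors 9 were higher and 6 lower (39.5% called), a share under that of all tested genes. With voom 5 were higher and 9 lower, and on the deposited values 5 and 11, so the balance of directions depends on the scaling. The chemokine CCL2 had 151, 245 and 70.0 normalised reads in monolayer and 2204, 1512 and 1090.5 in EHT (3.41 ± 0.41, adjusted p = 0.000436), CXCL8 (3.29 ± 0.33, adjusted p = 0.000198) and CSF1 (2.8) were higher, and CXCL14, a chemokine of epithelia, had 3777, 1659 and 1494 normalised reads in monolayer and 83.5, 104 and 73.6 in EHT (-4.22 ± 0.31, adjusted p = 5.51e-05). Of 13 complement genes 7 were higher and 2 lower (69.2% called), or 1 and 3 on the deposited values, and C1S (1.97) and C1R (1.34) were higher.

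Of 22 tested genes of cholesterol synthesis 17 were lower (81.8% called) and 1, PMVK, higher (0.58, turning to -0.16 on the deposited values). The call of PMVK was lost without EHT replicate 1, and over the 6 omissions its difference ran from 0.5 to 0.63. HMGCS1, the synthase that makes HMG-CoA, had 2345, 1897 and 2475 normalised reads in monolayer and 422, 466 and 567 in EHT (-2.09 ± 0.16, adjusted p = 6.55e-05), and SQLE, the squalene epoxidase, had 1028, 644 and 732 normalised reads in monolayer and 185, 213 and 222 in EHT (-1.75 ± 0.18, adjusted p = 0.000241). Of 14 glycolysis genes 8 were lower and none higher (57.1% called). The glucose transporter SLC2A1 had 4785, 5812 and 7312 normalised reads in monolayer and 1309.9, 1150.3 and 1334 in EHT (-2.14 ± 0.19, adjusted p = 0.000101) and the aldolase ALDOC was lower (-2.91 ± 0.34, adjusted p = 0.000396). Both SLC2A1 and PDK1 (-1.56) are also hypoxia-inducible, and of 23 genes on that list 9 were lower and 2 higher (47.8% called). CPT1A, which admits fatty acids into mitochondria, had 44, 90.9 and 53 normalised reads in monolayer and 525, 463 and 1514 in EHT (3.36 ± 0.42, adjusted p = 0.000528), though the fatty acid oxidation list held 6 higher and 5 lower genes of 22 (50% called), or 1 and 4 on the deposited values. COX4I2, an alternative subunit of cytochrome oxidase, had 118, 325 and 329 normalised reads in monolayer and no read in EHT (-4.29 ± 0.4, adjusted p = 0.000126). Of 24 complex I subunits 8 were higher and 1 lower (37.5% called), and of 55 mitochondrial ribosomal proteins 14 and 2 (29.1% called), both shares under that of all tested genes. On the deposited values none of either list was higher, and the medians turned from 0.23 to -0.52 and from 0.27 to -0.48.

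The called genes with the smallest standard errors are the most precise cases of the comparison, not typical ones. Among those called higher, PI4KA, a lipid kinase, differed by 0.57 ± 0.11, adjusted p = 0.0038 and ATP6V1B2, a proton pump subunit, by 0.6 ± 0.11, adjusted p = 0.00308; on the deposited values both lay below 0, at -0.17 and -0.14. Among those called lower, the cohesin subunit SMC1A differed by -0.84 ± 0.11, adjusted p = 0.000732 and the repair enzyme APEX1 by -0.53 ± 0.11, adjusted p = 0.00612. Over all tested genes the standard error ran from 0.11 to 1.64 with a median of 0.22, and the smallest difference that was called was 0.33.

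Genes with no read in 1 culture included several already named. GABRP, KRT4, CLDN6, VTCN1, AFP and GRHL2 had the largest monolayer shares among genes without a read in EHT. VTCN1, an immune checkpoint protein of epithelia, had 895, 673 and 748 normalised reads in monolayer and no read in EHT (at least 744-fold lower), and AFP, the fetal liver protein, had 310.1, 1247 and 627 normalised reads in monolayer and no read in EHT (at least 705-fold lower). In the other direction PRR4 was followed by GDA, a guanine deaminase, and BPI. Both lay under the filter and were not tested: GDA had 16, 25 and 7 reads in the EHT libraries, and BPI 16, 25 and 0, so that for BPI EHT replicate 3 was like monolayer. The bounds given rest on counted reads and cover counting error only.

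The same comparison in the hypoxia libraries shared no library with that in normoxia. Of the 2853 genes higher in EHT in normoxia, 2030 (71.2%) had the same sign in hypoxia, 927 (32.5%) were called in the same direction and 214 in the opposite one. Of the 2370 lower genes, 1820 (76.8%) had the same sign, 807 (34.1%) were called lower and 94 higher. Over all tested genes the sign was shared by 64.9%, and 32.1% were called in hypoxia in either direction. EHT hypoxia replicate 3 stands apart from its group. Without it the shares of the same call were 39.2% and 41.7%, and the opposite calls 423 and 263. Of all 12298 tested genes 2875 were then called higher in hypoxia and 2930 lower. A test of the interaction over 12 libraries called 2956 of 12084 genes (24.5%). Without EHT hypoxia replicate 3 that test called 4076.

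Some differences were of like size after hypoxia. CRABP1, a retinoic acid carrier, had 8308, 9243 and 6199 normalised reads in monolayer and 8.79, 101 and 1.07 in EHT in normoxia (-7.62 ± 0.62, adjusted p = 7.34e-05). Its difference in hypoxia was -7.74, and the interaction, normoxia minus hypoxia, was 0.12 ± 1.37, adjusted p = 0.963. S100A6 had a difference of 3.7 in normoxia and 3.59 in hypoxia (interaction 0.11 ± 0.28, adjusted p = 0.818), and the collagen receptor chain ITGA10 2.85 and 2.73 (interaction 0.12 ± 0.32, adjusted p = 0.826). For MYH6 they were -4.74 and -5.53, with an interaction too wide to place (0.78 ± 2.3, adjusted p = 0.845). These interactions did not pass the test, which does not show that the differences were equal.

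Others were found in normoxia and after hypoxia lay close to 0 or, for CDH2, on the other side of 0. NID1 differed by 3.16 in normoxia and -0.58 in hypoxia (interaction 3.73 ± 0.39, adjusted p = 9.27e-05). BGN differed by 3.41 and 0.01 (interaction 3.4 ± 0.37, adjusted p = 0.000135), and SEMA7A by 3.28 and 0.29 (interaction 2.98 ± 0.33, adjusted p = 0.000135). GRHL2 stood at -5.5 and 0.08 (interaction -5.59 ± 0.74, adjusted p = 0.000338). CDH2 was called in opposite directions, going from 1.19 to -2.36 (interaction 3.55 ± 0.42, adjusted p = 0.000198). Of the 22 tested p53 targets 14 had an interaction that passed, of 30 lysosomal genes 22, of 22 cholesterol genes 15, and of 27 mitosis genes 4, beside 24.5% of all genes. The hypoxia cultures also had a change of medium, so oxygen and medium change cannot be told apart in these values.

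**Figure D5:**
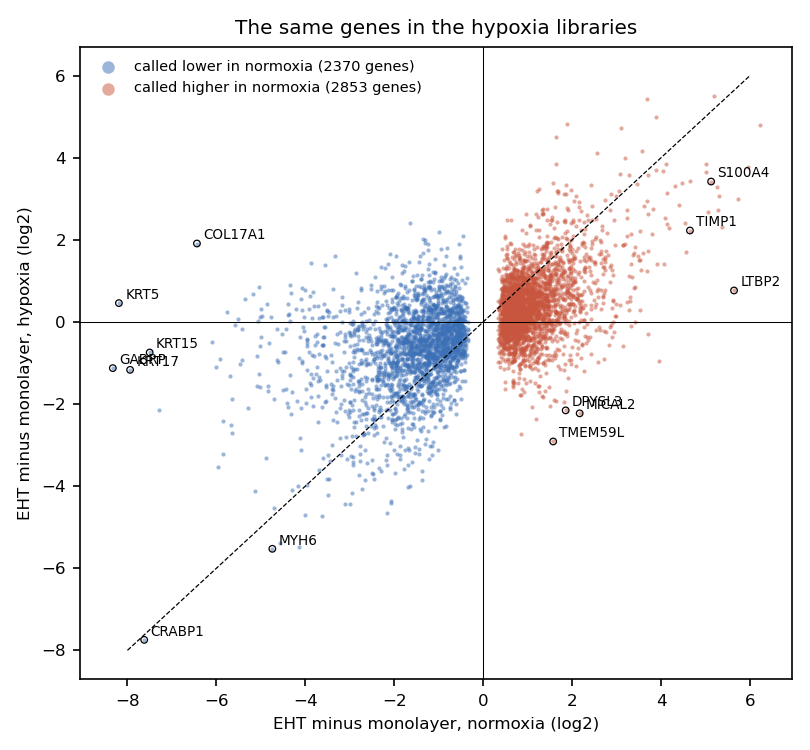
Each dot is a gene called in normoxia (red higher, 2853; blue lower, 2370), with its EHT minus monolayer difference in normoxia on the x axis and in hypoxia on the y axis (both log2). The dashed line marks equal differences. CRABP1 and MYH6 lie near it, whereas KRT5 (0.46 in hypoxia) and GABRP (-1.12 in hypoxia) lie far from it.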

How the data were processed

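RNA was extracted with an RNeasy kit and sequenced on Ion Proton from Ion Total RNA-Seq Kit v2 libraries, per the labels' protocols. HISAT2, featureCounts and DESeq2 are named in the submitters' processing notes; which build and gene models served, and in which versions of these tools, is not given in the sources used here. The authors deposited 1 table of variance-stabilised log2 values for 16745 genes in 12 libraries, of which 14848 symbols match the reference gene names. Undoing the transform gave whole reads for 100% of the values (tolerance 0.01), from which read totals and shares were computed; normalised reads are those reads over median-of-ratios factors.

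Each library was centred on its median over expressed genes (mean over the 6 libraries 1 log2 unit or more above the table's lowest value), and limma 3.58.1 in R 4.3.3 (eBayes with trend) tested the 6 normoxia libraries with Benjamini-Hochberg adjustment at 0.05. Errors are standard errors with n = 3 per group. Figures were drawn with matplotlib 3.10.9. The steps were tested on simulated data. Alternatives covered scaling, filters, moderation, each library left out, array weights, voom and a replicate block; re-transforming scaled reads and averaging EHT replicates 1 and 2 were added after seeing the data. The genes named are the 12 largest called differences per direction, list members, genes without reads in 1 culture, the largest read shares, the smallest standard errors and the largest interactions. Some items under these rules are not reported here. Members and lists were chosen with earlier results of these data known.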

Additional observations from a re-analysis of the deposited data

Results flagged for a closer look

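In 9 genes the EHT minus monolayer difference in normoxia departed strongly from the same difference after hypoxia, as tested by the interaction of culture and oxygen over 12 libraries. Normalised reads here are scaled over 12 libraries and so differ from those scaled over the 6 normoxia libraries in the report. In the 5 epithelial genes the departure was negative. KRT5 had an interaction of -8.66 (limma adjusted p = 0.00229), made of a difference of -8.19 in normoxia and 0.46 in hypoxia. COL17A1 had -8.35 (adjusted p = 0.0018), KRT17 -6.78 (adjusted p = 0.00212), KRT15 -6.76 (adjusted p = 0.00197) and GABRP -7.21 (adjusted p = 6.61e-05). For COL17A1 the normalised reads over all 12 libraries were 4586, 1336 and 1410 in the normoxic monolayer and 5.19, 9.23 and 8.39 in normoxic EHT. In hypoxia they were 65.7, 84.0 and 28.1 in monolayer and 815, 849 and 13.1 in EHT, so EHT hypoxia replicate 3 lay apart from replicates 1 and 2. The same held for KRT5 in hypoxia, with normalised reads of 39.7, 77.8 and 144.7 in monolayer and 353.5, 424 and 3.73 in EHT. For GABRP they were 14.9, 26.8 and 10.1 in monolayer hypoxia, where monolayer normoxia had 5332, 3203 and 2065.

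In the other 4 genes the departure was positive. LTBP2 had an interaction of 4.87 (adjusted p = 1.91e-05), with 57.5, 23.1 and 22.9 normalised reads in the normoxic monolayer, 2236, 2152 and 1736 in normoxic EHT, 546, 523 and 484 in the hypoxic monolayer, and 825, 881 and 896 in hypoxic EHT. TMEM59L had 4.48 (adjusted p = 0.000119). MICAL2, an oxidase that acts on actin, had 4.39 (adjusted p = 0.000899) and DPYSL3 4.01 (adjusted p = 6.1e-05). In TMEM59L, MICAL2 and DPYSL3 the sign of the difference was positive in normoxia and negative in hypoxia, and in LTBP2 it was positive in both (5.64 and 0.77).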

How the results depend on the processing

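On the deposited values without centring, 246 genes were called higher in place of 2853, 2599 lower in place of 2370, and 1249 had an interaction in place of 2956. Of 140 counts of list members called in 1 direction, 56 moved by more than 1.5 times on the deposited values, 22 under quantile normalization, 12 with voom and 9 to 26 on leaving out 1 library. Of the 204 called genes the texts name, 46 lost the call on the deposited values with the same direction, and 6 under quantile normalization (CDH2, COL1A1, FGFR1, FN1, PALLD and TCF21). Leaving out 1 library at a time gave 2009 to 2650 genes higher and 1831 to 2198 lower, and 3394 of the 5223 calls were made in all 6 omissions. Re-transforming the scaled reads gave 2400 higher and 3053 lower, quantile normalization 2854 and 2527, and centring on the more abundant genes 2093 and 2989. No gene called in the main comparison was called in the opposite direction under these settings. The fibroblast share of reads differed by 0.786 percentage points, and over the omissions by -0.0635 to 1.81; the blood cell share by -0.00969, and by -0.0165 to 0.00127.

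Differences that turned their sign on the deposited values were those of ATP6V1B2 (-0.14), FOXC1 (-0.094), PI4KA (-0.17) and PMVK (-0.16), which are called after centring, and of HMOX1 (-0.18), HSPA5 (-0.30) and VEGFA (-0.25), which are not. COL3A1 turned to 0.026 with array weights and PKP2 to 0.13. Over the omissions COL3A1 ran from -0.44 to 0.22 and PKP2 from -0.73 to 0.43. The cause was not tested beyond the shift that centring itself makes. Beside the omissions given with each gene, ACTC1 lost its call without monolayer replicate 1 or 2, ACTN2 and TNNC1 without either of these or EHT replicate 3 (ACTN2 also without EHT replicate 1, TNNC1 also without EHT replicate 2), and NEBL and MICAL2 without EHT replicate 1 or 2. With EHT replicates 1 and 2 averaged, FN1, CDH2, CDKN2B, HSP90AB1, ACTN2, TNNC1, NEBL and MICAL2 were not called.

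Nothing in the labels or the data shows that the replicate numbers pair the samples: the correlations of same-numbered libraries' deviations from their group means were -0.06, 0.23 and 0.14. A fit with the replicate number as a block gave 2783 genes higher, 2349 lower and 2887 with an interaction.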

Other observations

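Some groups outside the account above held called genes, with the share called to be read against 42.5% of all tested genes. Of 50 tested potassium channel genes 21 were lower and 8 higher (58% called), or 20 and 3 with voom. KCNH2, the channel of the rapid delayed rectifier, had 113, 207 and 147 normalised reads in monolayer and 6.59, 5.37 and 4.26 in EHT (-2.76 ± 0.27, adjusted p = 0.000171). KCNJ3 of the atrial inward rectifier (-2.6), KCNJ2 (-1.63) and the calcium-gated KCNN2 (-2.98) were lower, whereas KCNN4, the calcium-gated channel of non-excitable cells, had 2.55, 16.4 and 3.59 normalised reads in monolayer and 119, 87 and 239 in EHT (3.19 ± 0.46, adjusted p = 0.00104). Of 13 retinoid genes 6 were lower and 3 higher (69.2% called), or 8 and none on the deposited values. Beside CRABP1, the second carrier CRABP2 had 1685, 1908 and 1895 normalised reads in monolayer and 96.7, 107 and 195 in EHT (-3.55 ± 0.22, adjusted p = 3.04e-05), and the aldehyde dehydrogenase ALDH1A1 was lower (-2.05).

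Of 25 tumour necrosis factor ligands and receptors 10 were higher and 3 lower (52% called), or 5 and 3 on the deposited values, where the median turned from 0.71 to -0.04. The death receptor TNFRSF10A had 34.5, 42.5 and 3.59 normalised reads in monolayer and 299, 352 and 265 in EHT (3.4 ± 0.58, adjusted p = 0.00241), and NGFR, the low-affinity neurotrophin receptor, had 299, 215 and 286 normalised reads in monolayer and 2.20, 18.3 and 0 in EHT (-3.71 ± 0.42, adjusted p = 0.000333). The tubulins TUBB2B (-1.75), TUBA1B (-1.33) and TUBB (-1.12) were lower. Of 24 actin stress fibre genes 11 were higher and 1 lower (50% called), among the first PALLD (1.35, not called under quantile normalization) and TPM2 (1.26), and none in either direction on the deposited values, where the median turned from 0.53 to -0.21. Of 32 cytosolic ribosomal protein genes 6 were higher and 5 lower (34.4% called), a share under that of all tested genes. With voom 5 were higher and 8 lower, and on the deposited values 1 and 4. RPS27L (2.53 ± 0.14, adjusted p = 2.01e-05), also a p53 target, was the highest of that list.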
